A study of Mus musculus with 6 samples.

Results

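Ss18 (ENSMUSG00000037013) encodes a subunit of the BAF complexes, the mammalian SWI/SNF chromatin remodellers, which use ATP to move nucleosomes. In the developing nervous system the complex of dividing progenitors holds Ss18, and the complex of neurons that have left the cell cycle holds its relative Ss18l1 (also called CREST) instead. In human synovial sarcoma the gene is fused to an SSX gene. Circular RNAs (circRNAs) form when a splice donor is joined backwards to an acceptor that lies upstream of it, which leaves a closed ring of exons without free ends. They are plentiful in nervous tissue and are named by their host gene, which also makes the ordinary linear mRNA.

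All RNAs assigned to Ss18 in mouse spinal cord were collected: 2 of 17440 circRNAs and 6 of 194125 assembled or annotated isoforms. Ss18 was 1 of 5334 host genes of circRNAs. It was selected on its measured circRNA counts, which took a large and uneven part of the libraries, so its levels are described without a test. The libraries came from male C57BL/6 mice aged 8 weeks. In 3 of them (TSCI) the thoracic cord had received a moderate contusion from a falling weight after removal of the vertebral arch, and in 3 (sham) the arch alone had been removed. The labels mention 48 mice in sets of 8. They do not give the number of animals behind a library or the time after surgery, and where nothing shows that replicates came from separate animals, p-values measure the spread between libraries only.

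Total circRNA counts ran from 4117695 to 7177607 per library. These totals were whole numbers, but the counts of single circRNAs were not all whole. The lane in the labels was 8 for TSCI 1 and sham 1, 1 for TSCI 2, TSCI 3 and sham 3, and 3 for sham 2. Markers of cord cells were present in all libraries: 5 summed neuron markers gave 194 to 458 FPKM (fragments per kilobase of transcript per 1000000 reads) after injury and 277 to 854 in sham, and 5 oligodendrocyte markers gave 1498 to 4689 and 905 to 6179. The 5 macrophage markers summed to 476 to 2703 FPKM after injury and 33.5 to 110 in sham, and the 5 markers of dividing cells to 60.4 to 88.4 and 3.27 to 16.8. The 5 erythrocyte markers summed to 6954, 136648 and 43615 FPKM in TSCI 1, 2 and 3 and to 2373, 30101 and 21547 FPKM in sham 1, 2 and 3. The 5 skeletal muscle markers summed to 0.334, 7.88 and 1.04 FPKM after injury and to 3.10, 81.2 and 21.3 FPKM in sham. Within each group, both lists were lowest in the lane 8 library, where the Ss18 circRNAs described below were lowest too, and muscle markers were highest in TSCI 2, sham 2 and sham 3. All 5 markers of each of these lists had a mean of at least 0.5 FPKM over the libraries. Detection of each marker in every single library is not shown by that mean. In bulk tissue, fewer cells of a type and less RNA per cell cannot be told apart, and the part of cell makeup in the values below was not tested.

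Both Ss18 circRNAs lay on the minus strand of chromosome 18 (GRCm38) within the gene at 14624198 to 14682914, and both were listed under the isoform ENSMUST00000040964. The shorter spanned 14640956 to 14670393 and held exons 3 to 5 of that isoform, 407 exonic bases in 3 exons. The longer spanned 14633543 to 14670393 and held exons 3 to 9, 862 exonic bases in 7 exons. The 3 exons of the shorter were therefore all contained in the longer, and both rings began at the same acceptor, after an intron of 8993 bases. They ended at different donors, before introns of 594 and 6231 bases. Across all circRNAs of the table the median was 4 exons and 532 exonic bases, so the Ss18 rings lay on either side of the typical size.

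**Figure D1:**
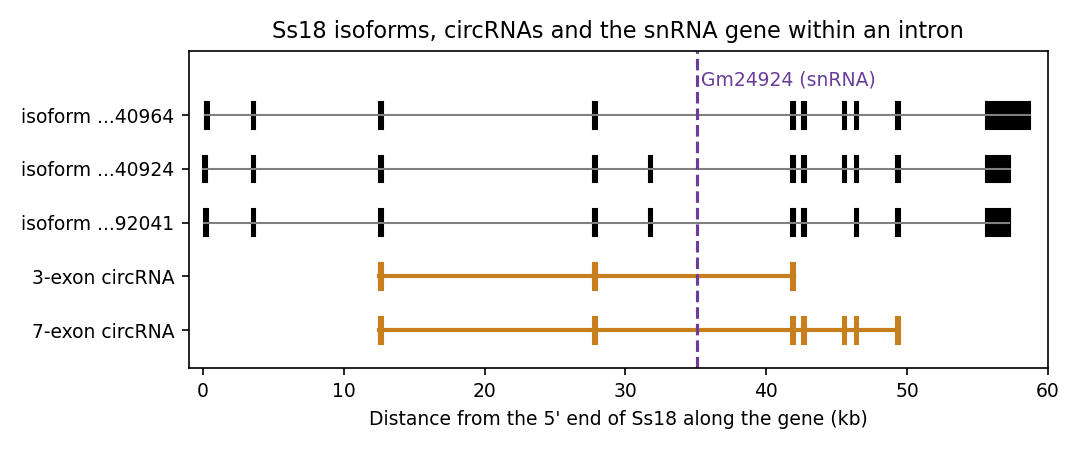
Map of Ss18 on the minus strand, drawn 5′ to 3′ by distance in kilobases from the gene's start, with the 3 annotated isoforms, the 2 circRNAs and the annotated small RNA gene Gm24924. Exons are drawn wider than to scale so that they can be seen. The rings share their start at exon 3, and Gm24924 lies in an intron inside both spans.

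The 7-exon circRNA had counts of 10121, 499755 and 70773 in TSCI 1, 2 and 3, and of 12737, 1147160 and 366960 in sham 1, 2 and 3. The 3-exon circRNA had counts of 9869, 499613 and 70347 after injury and of 12483, 1147124 and 366802 in sham. Each pair was nearly equal in every library, while the level itself moved by 113-fold from the lowest to the highest library, and the groups overlapped. TSCI 1 and sham 1, the libraries of lane 8, were the lowest of their groups.

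Summed, the pair took 0.485%, 23.2% and 2.05% of all circRNA counts in TSCI 1, 2 and 3, and 0.351%, 38.1% and 17.4% in sham 1, 2 and 3. The highest share was 108-fold the lowest, and both extremes were sham libraries. The mean was 8.57% ± 12.7 (SD, n = 3) after injury and 18.6% ± 18.9 in sham, so the SD was as large as the mean in each group. On the log2 scale the ratio of the group means was -1.12. It was -0.05 without sham 2 and -3.87 without TSCI 2, so a single library moved it across that range. Within lane 8 the share was 0.485% in the injured and 0.351% in the sham library. Within lane 1 it was 12.6% as the mean of 2 injured libraries and 17.4% in the sham library, and lane 3 held a sham library only. The longer ring holds all exons of the shorter, so reads that fit both may be counted in each or split between them. Every library's total over all circRNAs was a whole number, although only 33.8% of the single counts were. How shared reads entered the sum was not tested. The 7-exon ring alone took 0.177% to 19.0% of a library's circRNA counts.

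**Figure D2:**
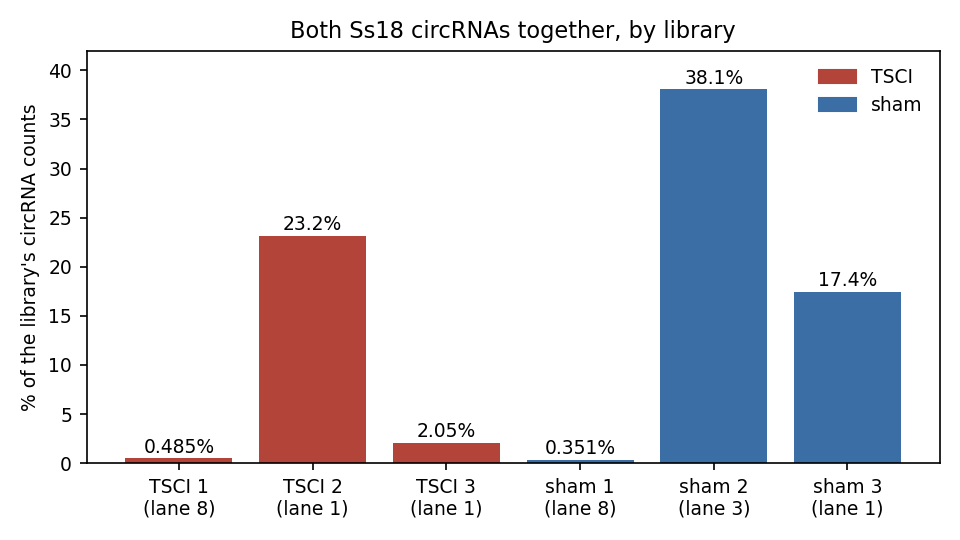
Share of each library's circRNA counts (percent) taken by the 2 Ss18 circRNAs, by library. Sham 2 stands highest at 38.1% and sham 1 lowest at 0.351%, and the injured and sham libraries overlap.

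The 7-exon circRNA ranked 1st of all circRNAs in TSCI 2, TSCI 3, sham 2 and sham 3, and 17th and 19th in TSCI 1 and sham 1. In sham 2 it had 20.4 times the count of the highest circRNA of another gene, a Dach1 ring, and in sham 3 19.7 times that of a ring of Mbp, the myelin basic protein gene. In TSCI 2 the ratio was 10.8, against a ring of Rpsa, which encodes a ribosomal protein. In TSCI 3 it was only 1.23, and it was 0.291 in TSCI 1 and 0.207 in sham 1, each time against a ring of Pde4b, a cAMP phosphodiesterase. Thus 3 libraries had this ring far ahead of any ring of another gene, 1 had it near that of Pde4b and 2 had it well behind. With the counts of all rings of a host summed, Ss18 ranked 1st in TSCI 2, TSCI 3, sham 2 and sham 3. It ranked 9th in TSCI 1 and 20th in sham 1. Over the 6 libraries the mean count of the 7-exon circRNA was 351251, against 31329 for the next circRNA that was not from Ss18 and 140 for the median circRNA.

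Counts divided by FPKM and length gave the number of reads behind the authors' scaling, 26602413 to 47159020 per library. Relative to it, the 7-exon circRNA had 380, 13921 and 1501 counts per 1000000 reads in TSCI 1, 2 and 3 and 335, 29125 and 9382 in sham 1, 2 and 3. The summed Ss18 circRNA counts, in which reads may be counted in both rings or split between them, equalled 0.0663% to 5.82% of those reads. The 7-exon count alone equalled 0.0335% to 2.91%, while the counts of all circRNAs together equalled 10.8% to 18.9%. The Ss18 rate spanned an 86.9-fold range, much wider than that of the total. With Ss18 set aside, the circRNA totals were 4097706, 3311647 and 6735948 after injury and 7152388, 3733735 and 3484999 in sham.

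The counts of the 2 rings differed by little. The 7-exon count exceeded the 3-exon count by 252, 142 and 426 in TSCI 1, 2 and 3 and by 254, 36 and 158 in sham 1, 2 and 3. These differences were whole numbers in all 6 libraries (within 1e-06), whereas the 3-exon count was whole in none. They made up 2.49% of the 7-exon count at most, in TSCI 1, and 0.00314% at least, in sham 2. The library with the highest Ss18 circRNA counts therefore had the smallest difference between them. The labels do not say which reads the circRNA counts include, and reads across the 2 backward junctions could not be separated from the rest.

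Divided by the 455 exonic bases that only the longer ring holds, and scaled as the deposited FPKM are, these differences came to 20.8, 8.69 and 19.9 FPKM after injury and to 14.7, 2.01 and 8.88 FPKM in sham. By contrast, the deposited FPKM of the 3-exon circRNA was 911, 34193 and 3665 after injury and 807, 71558 and 23042 in sham. Whether the differences are reads on the 4 added exons was not tested.

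Both spans also contain Gm24924 (ENSMUSG00000094306), a small nuclear RNA gene of 164 bases at 14647767 to 14647930 on the same strand, in the intron between exons 4 and 5 of ENSMUST00000040964. It overlaps no exon of the 3 annotated Ss18 isoforms and sits 6643 and 7096 bases from the nearest exons of ENSMUST00000040964. It was the only annotated small RNA gene in the span of the longer ring. Its sequence differed by 1 edit from 7 other annotated transcripts, among them Rnu1a1, a gene of U1 snRNA. U1 is the abundant spliceosomal RNA that pairs with 5′ splice sites. Within 10% of its length in edits there were 34 transcripts in GENCODE M21, itself included, and 25 of them were in the isoform table.

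Of all 17440 circRNAs, 3 had such a U1-like copy inside their span: the 2 of Ss18 and 1 of 9430076C15Rik, which holds Gm25818. Gm25818 was not among the copies in the isoform table. The count of the 9430076C15Rik ring is not given here, so it cannot be set beside those that follow. More widely, 6 circRNAs spanned a small noncoding RNA gene with a mean of at least 100 FPKM, all on the same strand. By mean count, the Ss18 rings ranked 1st and 2nd of the table, a ring of the translation initiation factor gene Eif4a1 20th and a ring of its relative Eif4a2 24th. The remaining 2, both of the nuclear import gene Kpna4, ranked 90th and 111th.

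Gm24924 itself was listed at 243, 19555 and 1062 FPKM in TSCI 1, 2 and 3 and at 273, 12068 and 0 FPKM in sham 1, 2 and 3. In the 5 libraries other than sham 3 it was high where the Ss18 circRNAs were high and low where they were low, although TSCI 2 and sham 2 changed places at the top and TSCI 1 and sham 1 at the bottom of the order. Reads of near-identical copies can be assigned to any of them, and 7 to 12 of the 25 copies were listed at 0 in a given library, so the copies were also summed. The 25 together gave 19938, 153637 and 63047 FPKM after injury and 15764, 189276 and 200840 FPKM in sham, a 12.7-fold range. TSCI 1 and sham 1 had the lowest 2 values of both the summed copies and the scaled Ss18 counts, TSCI 3 came next in both, and the order of the upper 3 libraries differed. Sham 3 had the highest summed copies and only the third highest Ss18 value. The part of reads from the small RNA in the Ss18 circRNA counts was not tested.

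**Figure D3:**
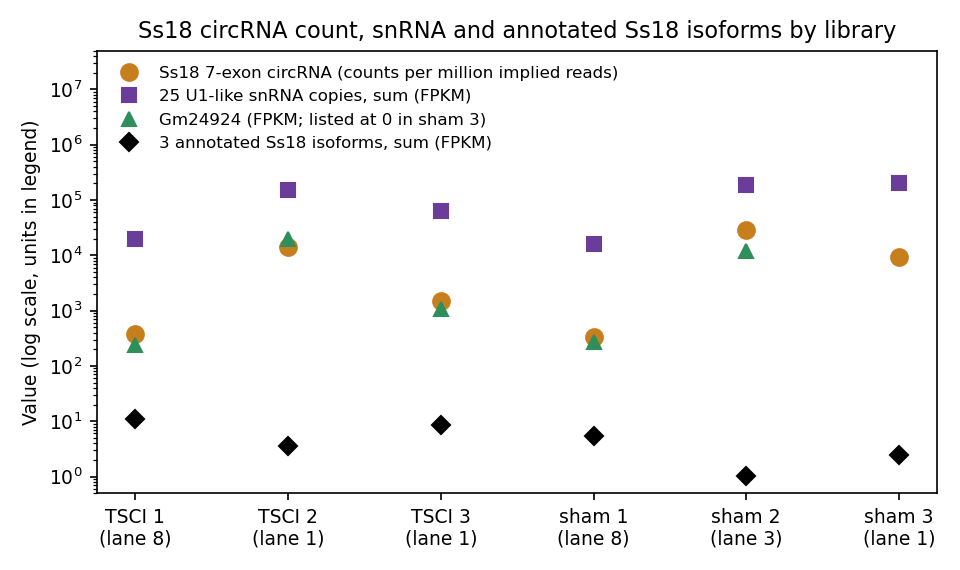
By library, on a log axis: the 7-exon Ss18 circRNA in counts per 1000000 reads, and FPKM of the 25 summed U1-like copies, of Gm24924 and of the 3 annotated Ss18 isoforms described next. The libraries of lane 8 are lowest in the Ss18 count and the summed copies, and sham 3 is highest in the copies while Gm24924 is listed at 0 there.

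The linear RNA of Ss18 was low and did not follow the circRNAs. The 3 annotated isoforms summed to 11.1, 3.61 and 8.59 FPKM in TSCI 1, 2 and 3 and to 5.48, 1.01 and 2.47 FPKM in sham 1, 2 and 3. The means were 7.77 ± 3.82 (SD, n = 3) and 2.99 ± 2.27 FPKM, and TSCI 2 fell below sham 1, so the groups overlapped. The difference was 1.34 on the log2(FPKM + 0.5) scale, in the direction opposite to that of the circRNA share. The sham 2 library had the highest circRNA level and the lowest linear level of all 6. Within lane 8 the injured library had 2.03 times the sham value, and within lane 1 the mean of 2 injured libraries was 2.47 times the sham value.

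With all class codes, which adds fragments assembled inside and next to the gene, the sums were 26.9, 3.61 and 10.0 FPKM after injury and 5.48, 1.01 and 3.81 FPKM in sham, a difference of 1.64 on the same scale. Leaving out 1 library in turn moved it between 0.96, without TSCI 1, and 2.32, without TSCI 2. The fragments added most to TSCI 1. Of the 3 assembled fragments, an intronic one of 224 bases (MSTRG.51778.1) was listed in TSCI 1 alone, at 8.46 FPKM. A fragment of 266 bases near the gene (MSTRG.51769.1) was at 6.23 FPKM in TSCI 1 and 1.34 FPKM in sham 3, and one of 599 bases (MSTRG.51768.1) at 1.13 and 1.44 FPKM in TSCI 1 and 3. All 3 were listed at 0 elsewhere. The mean over the libraries reached 0.5 FPKM for 5 of the 6 isoforms, all but MSTRG.51768.1.

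The annotated isoforms differ in 2 internal exons. An exon of 222 bases at 14651023 to 14651244, between exons 4 and 5 of ENSMUST00000040964, is in ENSMUST00000040924 and ENSMUST00000092041, and an exon of 93 bases at 14637392 to 14637484 is missing from ENSMUST00000092041. The exonic lengths of both rings leave out the 222 bases, and that of the 7-exon ring includes the 93, as in ENSMUST00000040964. This isoform was listed at 2.99, 0.105 and 0.396 FPKM after injury and at 0, 1.01 and 1.36 FPKM in sham. ENSMUST00000040924 was listed at 3.37, 0 and 6.79 FPKM after injury and at 4.41, 0 and 1.11 FPKM in sham. ENSMUST00000092041 was listed at 4.76, 3.51 and 1.40 FPKM after injury and at 1.07, 0 and 0 FPKM in sham.

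No isoform led in all libraries. ENSMUST00000092041 made up 97.1% of the annotated sum in TSCI 2 and 42.8% in TSCI 1, ENSMUST00000040924 79.1% in TSCI 3 and 80.5% in sham 1, and ENSMUST00000040964 100% in sham 2 and 55.0% in sham 3. Each isoform was at 0 in at least 1 library in which another was present, and an exact 0 in such a table can be a failed estimate. At a summed level of 1.01 to 11.1 FPKM, the split between isoforms was not stable between replicates of a group.

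**Figure D4:**
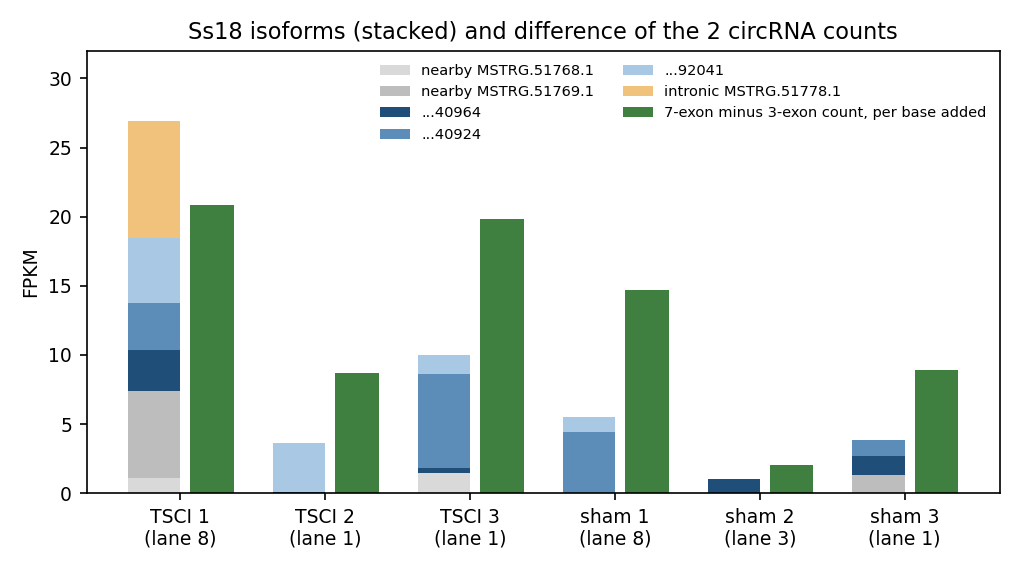
FPKM of the 6 Ss18 isoforms by library, stacked (3 annotated ones in blue, named by the end of their ID, and 3 assembled fragments in grey and orange), beside the difference between the 7-exon and 3-exon counts, scaled to FPKM over 455 bases (green). Both bars are lowest in sham 2, at 1.01 and 2.01 FPKM.

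Set against the linear RNA, the FPKM of the 7-exon circRNA was 39.7, 4470 and 203 times the summed annotated isoforms in TSCI 1, 2 and 3 and 71.0, 33293 and 4400 times in sham 1, 2 and 3. Over all circRNAs whose host gene had annotated FPKM, 14125 to 17232 per library, the median ratio was 0.981 to 1.29. Ranked by this ratio, the 7-exon ring stood 264th, 10th and 103rd after injury and 189th, 10th and 2nd in sham. Even in TSCI 1, where the count was lowest, 98.4% of circRNAs had a lower ratio. The difference between the 2 circRNA counts, scaled to the same 455 bases, was instead 1.87, 2.41 and 2.31 times the annotated isoforms after injury and 2.68, 1.98 and 3.59 times in sham. This ratio thus stayed between 1.87 and 3.59, while that of the whole 7-exon count ran from 39.7 to 33293.

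The circRNAs that followed the 7-exon ring most closely over the 6 libraries, by Pearson's r of log2(CPM + 0.5) among 17363 circRNAs tested (CPM, counts per 1000000 circRNA counts of the library), were rings of Gm28539 (r = 0.991), Pik3c2a (0.991), Sil1 (0.986), Snx12 (0.986) and Papd7 (0.984). They covered log2 ranges of 0.71 to 3.16, against 6.74 for Ss18, so their order of libraries was alike and their span was much smaller. The Pik3c2a ring, for example, had a count of 5.83 in TSCI 1, its lowest. All these points share the libraries' depth and lanes, and the highest of so many correlations over 6 points is high by selection. For the linear RNA, the genes most like the summed FPKM of all Ss18 isoforms over the 6 libraries, by Pearson's r of log2(FPKM + 0.5), were Gm21860 and Gm21748 (0.996 each, with identical values), Plpp7 (0.995), Ttc12 (0.995) and Bud13 (0.994). Like the linear Ss18 sum, and unlike the rings, all 5 were highest in TSCI 1 and lowest in sham 2.

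Ss18 protein works inside a complex, so the other genes of the BAF complexes were examined in the same libraries, summing the FPKM of all isoforms of a gene. All 30 listed genes were present and passed the minimum mean of 0.5 FPKM. None passed limma's adjusted p of 0.05 in either direction, where 0.126% of all 19072 genes tested were higher after injury (24 genes) and 0.0% lower. Before adjustment, 1371 genes were higher and 187 lower at p under 0.05, and 1 of the 30, Actl6a, was among the higher. The log2 difference was positive for 22 of the 30, with a median of 0.69. Over all 19072 genes tested it was positive for 13309, with a median of 0.47. Under median-ratio scaling these medians were 0.27 and 0.07 and 18 of the 30 were positive, and with reference-class isoforms only they were both 0.44. Single libraries moved them as much: they were 1.37 and 0.85 without sham 1, with 29 positive, 0.19 and 0.15 without TSCI 1, 0.20 and 0.25 without sham 2, and 0.18 and 0.38 without sham 3. The BAF median thus stood above that of all genes in some of these fits and below it in others.

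The complex has 1 of 2 ATPase motors. Smarca4 (BRG1) was at 14.2 ± 12.7 FPKM after injury and 9.84 ± 12.6 in sham (SD, n = 3 each), and Smarca2 (BRM) at 16.9 ± 12.4 and 21.1 ± 23.5. Both were highest in TSCI 1 and sham 1, the lane 8 libraries, which also had the lowest Ss18 circRNA share. This was not particular to the ATPases. Many other genes of the list, among them Smarcc2, Arid1a and Brd7, were highest there too, but Actb, Bcl7c and Pbrm1 were not. The log2 differences of Smarca4 and Smarca2 were 0.93 ± 0.95 (SE, adjusted p = 0.829, limma) and -0.01 ± 0.87 (adjusted p = 0.998, limma).

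Of the 11 core genes, 9 had positive differences, as had 13309 of all 19072 genes tested. Actb, the actin that also sits in the complex, was at 1241 ± 395 FPKM after injury and 318 ± 175 in sham, and its groups did not overlap, but its log2 difference of 2.05 ± 1.11 (SE) did not pass (adjusted p = 0.687, limma). Smarce1, a DNA-binding core subunit, was also above sham in every injured library, at 17.4 ± 4.09 against 7.64 ± 5.09 FPKM. It is named here because its groups did not overlap, after its values were seen. The share of all tested genes with such groups is not given here, so the separation is a description only. Smarcc2, a scaffold subunit, was at 18.9 ± 13.7 and 20.5 ± 24.9 FPKM, and Bcl7c at 27.1 ± 13.3 and 16.9 ± 10.9 FPKM. For neither was the difference larger than the spread between replicates.

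Other subunits belong to 1 form of the complex. For canonical BAF, Arid1a was at 10.1 ± 8.21 FPKM after injury and 6.43 ± 6.43 in sham, Arid1b at 77.8 ± 78.5 and 55.3 ± 28.2, and the zinc finger protein gene Bcl11a at 3.86 ± 2.66 and 9.32 ± 14.3. For the polybromo form (PBAF), Pbrm1 was nearly level at 19.8 ± 5.14 and 19.5 ± 5.57 FPKM. Phf10, which belongs to progenitor complexes in the developing nervous system, was at 26.6 ± 9.52 and 9.93 ± 9.08 FPKM, a log2 difference of 1.66 ± 0.77 (SE, adjusted p = 0.615, limma). Brd7, a bromodomain subunit, was at 11.6 ± 7.22 and 4.81 ± 6.26 FPKM, a log2 difference of 1.74 ± 0.92 (adjusted p = 0.674, limma). For the non-canonical form, Brd9 was at 8.16 ± 3.41 and 5.60 ± 5.51 FPKM, Bicra (listed as Gltscr1) at 26.6 ± 32.7 and 13.7 ± 13.6, and Bicral (listed as Gltscr1l) at 2.43 ± 1.15 and 3.45 ± 4.99.

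The subunits that are exchanged when neural progenitors become neurons include Ss18 itself. Its neuronal counterpart Ss18l1 had 2.47, 1.12 and 2.20 FPKM after injury, in replicate order, and 5.90, 0.695 and 1.49 FPKM in sham, with overlapping groups and a log2 difference of -0.08 ± 0.88 (SE, adjusted p = 0.988, limma). The annotated linear Ss18 sum exceeded the Ss18l1 sum in 5 of the 6 libraries, on the length-scaled FPKM, and sham 1 was the exception. The actin-like subunit of progenitor complexes, Actl6a, was at 13.1 ± 7.72 FPKM after injury and 4.17 ± 4.55 in sham, a log2 difference of 1.96 ± 0.91 (SE, adjusted p = 0.608, limma). Its neuronal counterpart Actl6b was at 2.04 ± 0.309 and 3.68 ± 3.37 FPKM (log2 difference -0.41). Among the Dpf genes, Dpf2 was at 13.0 ± 10.7 and 7.27 ± 4.87 FPKM and Dpf3, of neuronal complexes, at 11.9 ± 13.8 and 24.4 ± 13.7. Dpf1, also neuronal, was at 7.50, 0.653 and 3.26 FPKM after injury and at 6.17, 0 and 0.282 FPKM in sham. Over the 6 exchanged genes, 3 differences were positive (Actl6a, Dpf2 at 0.76 and Dpf1 at 1.24). The other 3 were negative (Actl6b, Dpf3 at -1.41 and Ss18l1), and none passed. The negative 3 are neuronal subunits, and so is Dpf1, which was positive. The progenitor subunits Actl6a and Phf10, the latter from the PBAF list, were positive, as were 13309 of all 19072 genes tested. Without sham 1, Actl6b (0.22) and Ss18l1 (0.61) turned positive too. These signs are a description only, and a pattern by cell stage was not tested.

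**Figure D5:**
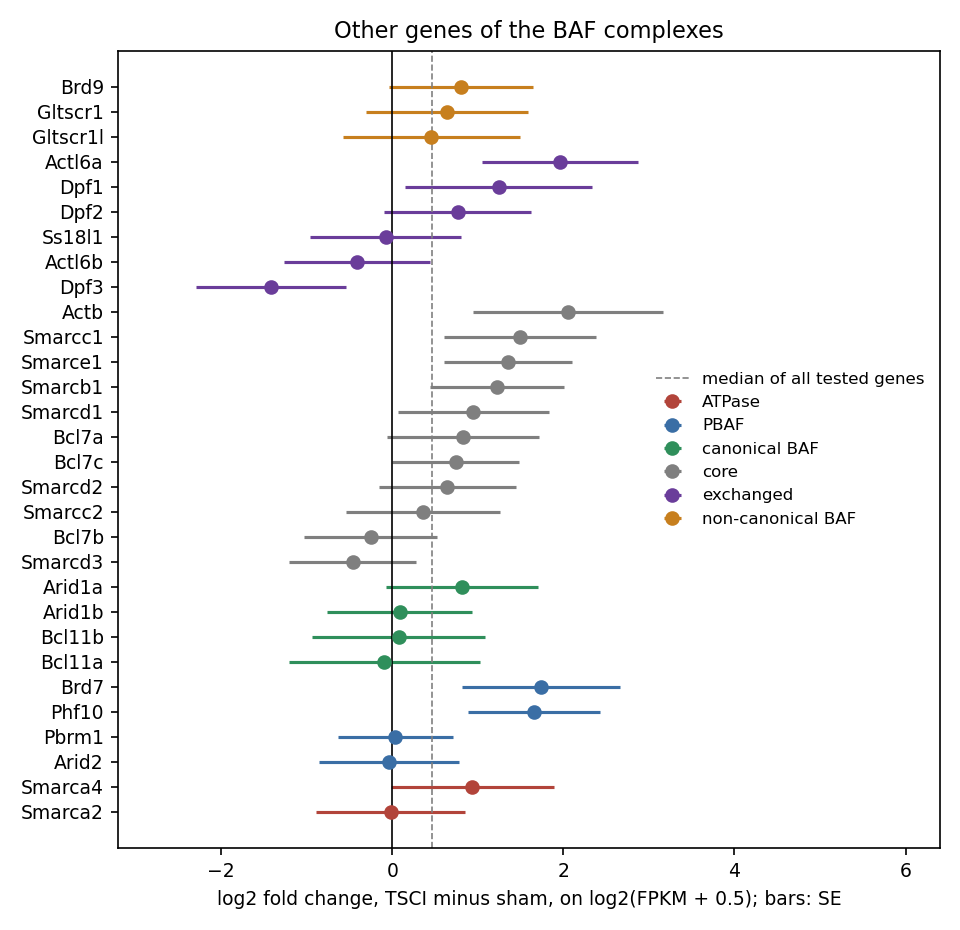
Log2 difference between injured and sham libraries (log2(FPKM + 0.5), bars are SE) for 30 genes of the BAF complexes other than Ss18, coloured by role. The points scatter on either side of the median of all tested genes at 0.47 (dashed), and none passed an adjusted p of 0.05.

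Rings from these hosts had far lower counts than those of Ss18. The table held 53 circRNAs of 15 BAF genes, 14 of them from Pbrm1, and all were tested. With edgeR's quasi-likelihood test none passed, as among all 17363 circRNAs tested (0.0% higher, 0.0% lower). At an unadjusted p under 0.05, 1 BAF ring was higher and 2 were lower, against 805 higher and 1217 lower of all. DESeq2 called 251 circRNAs, 199 higher and 52 lower, and none of the 53. The most abundant, a 9-exon ring of Pbrm1, was at 109 ± 25.6 CPM after injury and 122 ± 39.8 in sham (log2 difference -0.41, adjusted p = 0.759, edgeR). A 4-exon ring of Smarca2 was at 104 ± 53.0 and 100.2 ± 97.2 CPM (adjusted p = 0.998, edgeR), and a 3-exon ring of Arid1b at 122 ± 36.2 and 89.5 ± 37.3 CPM (adjusted p = 0.743, edgeR).

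Because the Ss18 rings took up to 38.1% of a library's circRNA counts, the circRNA test was also run with both left out of the table, an alternative chosen after seeing the data. It then called 1 circRNA, against 0 with the Ss18 rings kept. No ring of a BAF host passed in that fit either.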

How the data were processed

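2 tables hold the values of 3 TSCI and 3 sham libraries. Trizol RNA was depleted of ribosomal RNA and made into stranded libraries, per the labels' protocols, and no RNase R step is named. HISAT2, StringTie and TopHat appear, per the submitters' processing notes. The labels give neither the circRNA caller nor the build. Of the Ensembl transcripts, 94.6% had their GENCODE M21 (GRCm38) position. Only 33.8% of the deposited circRNA counts were whole (within 1e-06), so they were taken as estimated counts, not the whole reads the design had foreseen, and rounded. Isoform and circRNA FPKM and isoform coverage (signal) were used as deposited by the authors.

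circRNAs with at least 10 counts and presence in at least 3 libraries were tested by quasi-likelihood in edgeR 4.0.16 with TMM scaling, and DESeq2 1.42.0 served as the other tool. Genes, summed over isoforms, with a mean of at least 0.5 FPKM were tested with limma 3.58.1 (trend) on log2(FPKM + 0.5), which understates changes of low genes. p-values were adjusted by Benjamini-Hochberg over each table. The software was R 4.3.3 and Python 3.11.15. Named BAF genes were the top 3 of each role by mean FPKM and the 6 exchanged subunits. Smarce1 is described outside this rule, because its groups did not overlap. Members and lists were chosen with earlier results of these data known. No sequence is printed, and 1 circRNA called without the Ss18 rings is not reported here.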

Additional observations from a re-analysis of the deposited data

How the results depend on the processing

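The Ss18 values have no test, and the difference in circRNA share kept its sign under TMM, DESeq2 and FPKM scaling (-1.30 to -1.35 on the log2 scale). The count of passing circRNAs was 0, and it was 251 with DESeq2 and 1 with the Ss18 rings left out, the latter chosen after seeing the data. The count of passing genes was 24. It was 273 with lane 8 as a covariate, 9 with median-ratio scaling, 0 without a filter on low values and 149 with reference-class isoforms only. It ran from 2 to 133 when each library was left out in turn: 10 without TSCI 2, 2 without TSCI 3, 133 without sham 1, 9 without sham 2 and 14 without sham 3. The 305 genes passing with the replicate number as a block are set apart, since the numbers were not shown to pair the samples: same-numbered libraries had correlated deviations of 0.54, 0.31 and 0.03 for circRNAs and 0.40, 0.21 and 0.087 for genes, and TSCI 2 correlated more with sham 3 (0.38 and 0.30). With that block 0 circRNAs and 0 BAF genes passed.

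No named BAF result passed under any alternative. Of 155 values under settings that keep all libraries, 5 had the other sign: Smarcc2 (-0.076), Arid1b (-0.37) and Pbrm1 (-0.42) with median-ratio scaling, Arid1b with reference-class isoforms (-0.0039), and Bcl11a with a pseudocount of 0.1 (0.0031). Of 138 values with a library left out, 21 did. The log2 differences then ranged as follows: Smarca2 -0.57 to 0.85, Smarcc2 -0.27 to 1.34, Arid1b -0.72 to 0.75, Bcl11a -0.94 to 1.28, Pbrm1 -0.22 to 0.26, Gltscr1 -0.36 to 1.39, Gltscr1l -0.52 to 1.58, Actl6b -0.93 to 0.22, Ss18l1 -0.60 to 0.61 and the Smarca2 circRNA of 4 exons -0.39 to 0.89. The cause was not tested. With 3 widely spread libraries a group, a p that misses the threshold does not show equal levels.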
